A study of Mus musculus with 8 samples.

Results

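The recovery of RNA with an antibody against CPEB2 was measured in wild-type (WT) mouse mammary cells as the difference between the immunoprecipitate (IP) and the starting lysate (Input). The measured items were 3' untranslated regions (3' UTRs), 1 per row of a table of 20586 rows on the mouse build mm10, and 5317 of them, those whose normalized count averaged at least 43 over all libraries, were taken. The recovery of a row is the authors' WT IP value minus their WT Input value, both log2 values of a normalized count plus 1, so a recovery of 1 is a doubling on that scale. The 4 WT libraries are 2 IP and 2 Input libraries, labelled RIP2 WT3 or RIP3 WT4. These labels were read here as RIP experiment 2 with cell preparation 3 and RIP experiment 3 with cell preparation 4. The Cpeb2 knockout (KO) control has the same layout, with the same antibody, so the series holds 8 libraries in 4 groups. All cells came from mice of the strain given as C57BL/6J 129. They were taken from the gland by enzymes, enriched for epithelium and used fresh, with no culture and no treatment. The sources used here do not give age, the number of mice per preparation or the deleted part of Cpeb2. Poly(A) RNA was purified for the Input libraries and not for the IP libraries. Each recovery below therefore compares unselected with selected RNA, and the contributions of the antibody and of the selection cannot be told apart within WT.

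CPEB2 is 1 of 4 related RNA-binding proteins named for the cytoplasmic polyadenylation element. They bind short uridine-rich elements in 3' UTRs and can lengthen or shorten the poly(A) tail and so switch translation on or off. RNA immunoprecipitation recovers the transcripts that travel with such a protein, and also RNA that sticks to beads or antibody, which the knockout IP is meant to show. The study's title ties CPEB2 to RANKL, the cytokine through which progesterone drives growth of the mammary epithelium.

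The values used are 1 per group. The table also has 8 columns of values per library, named by sequencing index alone, which no label ties to samples, so they were not used. No standard deviation or test is therefore given for the WT recovery of a single row, and depth per library is unknown here. Mean normalized counts of the 5317 rows reached 4209, with a median of 103. The lowest inside the filter was 43.01 and the highest outside it 42.98. As a yardstick of spread between independent groups, the authors' WT Input and KO Input values differed with a standard deviation of 0.25 over the rows, and their WT IP and KO IP values with one of 0.55. Both figures also hold any effect of the genotype. The WT recoveries had a standard deviation of 1.24. A test does exist for the difference between WT and KO recovery, the interaction that the authors fitted with DESeq2 and deposited with its standard error (SE) and Wald test. The labels do not say that preparations came from separate animals, so these p-values measure only the spread between the libraries, which may be technical.

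The labelled cell type was checked on markers in WT Input, as normalized counts per kilobase of 3' UTR computed from the authors' group values. All 9 epithelial markers were present, from 266 for the cadherin gene Cdh1 to 837 for the keratin gene Krt18, with a median of 556. Fibroblast markers were present as well, with a median of 235 over 7 genes and 1020 for the proteoglycan gene Dcn. The median was 111 over 7 endothelial markers, 12.2 over 6 leukocyte markers and 2.97 over 5 adipocyte markers, where only Fabp4, with 577, stood high. None of these markers was at 0. Their rows differ in length, among the epithelial ones from 65 bases for Krt18 to 1631 for Cdh1. Before division by length, the authors' WT Input values ran from 5.79 to 8.76 over the epithelial markers. Over the fibroblast markers they ran from 6.57 to 9.48. The higher epithelial median per kilobase thus depends on the division by row length and does not rank these cell types. In such bulk samples fewer cells of a type and less RNA per cell cannot be told apart. The preparation thus held epithelium with stromal and endothelial RNA. Summed over its markers, the endothelial list stood at 852 per kilobase in WT Input and 1825 in WT IP, the epithelial list at 5019 and 4241, the fibroblast list at 2766 and 2327. The endothelial markers differed among themselves. Cdh5 went from 111 to 416 and Sox18 from 75 to 331, while Kdr and Flt1 had recoveries of 0.05 and -0.04. A wider list of 12 measured endothelial genes had a median recovery of 0.23, below the 0.29 of all rows. The part of these cell types in the recoveries of other genes was not tested.

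WT recovery spread over more than 8 log2 units in all, from -4.51 to 4.31, with a median of 0.29 and 59.1% of rows above 0. At least 1 higher in IP than in Input were 1499 rows (28.2% of all), and at least 1 lower were 836 (15.7%). With the median of all rows subtracted these counts were 1081 and 1160, so which direction held more rows depends on the zero point. With the running median over 3' UTR length subtracted they were 852 and 1024. The filter on mean count let some rows pass through 1 fraction only. Of the 1499 rows higher in IP, 392 (26.2%) had both Input values below the level of the filter, and of the 836 lower rows 337 (40.3%) had both IP values below it. All rows with both Input values below it numbered 510, and those with both IP values below it 441. Such rows had to differ between the fractions over both genotypes, though not by 1 in WT. The counts of higher and lower rows thus describe the filtered rows and not all transcripts.

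Most of the WT recovery had its like in the knockout. The recovery of the same rows in KO, from 4 other libraries, ran from -4.57 to 3.42 with a median of 0.15, and 906 rows were at least 1 higher (17.0%) and 904 at least 1 lower (17.0%). Across the 5317 rows the 2 recoveries had a Spearman correlation of 0.86, given as a description, since the rows share their normalization and the poly(A) step of Input. With the length trend subtracted from each it was 0.85. Of the 1499 rows at least 1 higher in WT, 805 (53.7%) were at least 1 higher in KO too, 1441 were above 0 there, and the median KO recovery was 1.05 beside 1.56 in WT. Of the 836 rows at least 1 lower in WT, 622 (74.4%) were at least 1 lower in KO, and their medians were -1.55 in WT and -1.74 in KO. Rows chosen for a high WT recovery tend to have a less high one in other libraries through the choice alone, so these medians are a description. Over all 5317 rows the WT recovery was above the KO recovery in 64.8% and below it in 35.2%.

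**Figure D1:**
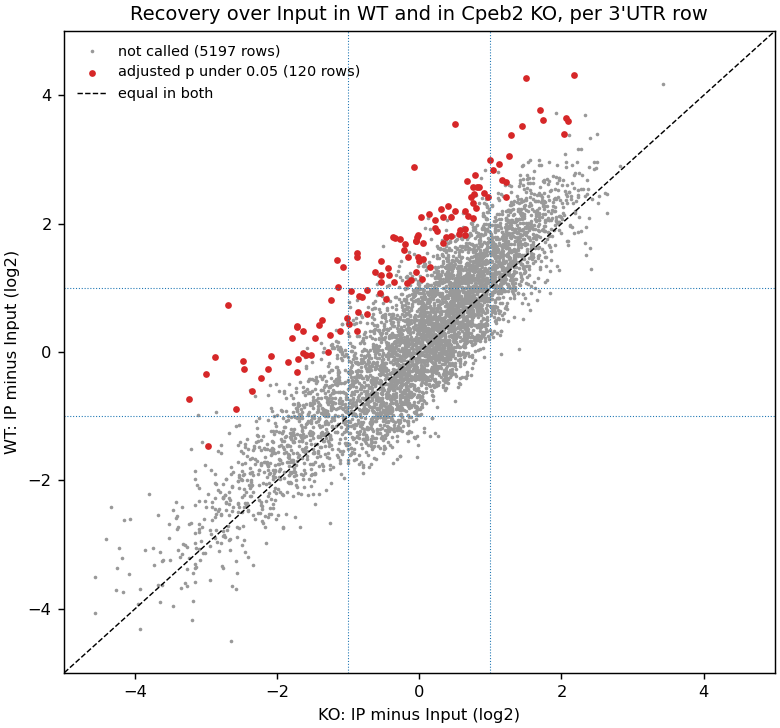
Each point is a 3' UTR row, with KO IP minus KO Input on the x axis and WT IP minus WT Input on the y axis, both in log2 units of the authors' group values. Dotted lines mark -1 and 1, the dashed line marks equal recovery, and the 120 rows with an adjusted p under 0.05 in the authors' interaction test, in red, all lie above that line.

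The highest recovery belonged to Gcnt1, which encodes an enzyme that branches O-linked glycans, on chromosome 19 from 17326141 to 17329072. The authors gave it 8.30 in WT IP and 3.99 in WT Input, a recovery of 4.31 or 19.9-fold, beside 6.01 in KO IP and 3.84 in KO Input. Both Inputs and the KO IP lay below the WT IP, which stood apart from the other 3. Arhgap19, a GTPase-activating protein, on chromosome 19 from 41766588 to 41770185, had 7.30 in WT IP and 3.02 in WT Input (19.4-fold), against 5.28 and 3.78 in KO. Prrg1, a membrane protein with a Gla domain, on chromosome X from 78449613 to 78452686, had 7.03 and 2.85 in WT (18.1-fold), and here the KO followed closely with 6.12 and 2.70. These 3 genes show the range of the knockout control at similar WT recovery, from 1.50 for Arhgap19 through 2.18 for Gcnt1 to 3.42 for Prrg1. All 3 had both Input values below the level of the filter and passed it through IP. In Arhgap19 the KO IP lay below that level too, so it passed through WT IP alone.

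The other 12 of the 15 highest had recoveries from 3.33 to 3.77. They include St8sia4, which adds polysialic acid to proteins (3.77), the phospholipid scramblase gene Plscr4 (3.72) and Alg10b, which adds glucose to the precursor of N-linked glycans (3.70). Dcp1a, an activator of mRNA decapping, had 3.65, from 8.79 in WT IP and 5.14 in WT Input on chromosome 14 from 30523307 to 30527056. Plekhg1, an exchange factor of small GTPases, had 3.62, the thrombin receptor gene F2r 3.60 and Prkar2b, whose product regulates protein kinase A, 3.56. Cpeb2 itself ranked among them with 3.53, or 11.5-fold, from 9.64 in WT IP and 6.11 in WT Input. The general transcription factor subunit gene Gtf2a1 had 3.40, the GABA-B receptor auxiliary subunit gene Kctd12 3.39, the GTPase-activating protein gene Stard13 3.38 and the aminopeptidase gene Lnpep 3.33. Of these 12 only Cpeb2, Kctd12 and Lnpep had Input values above the level of the filter. The others had both Input values below it and passed it through IP, so their high recoveries are tied to the filter. None of the 15 overlapped a row on the opposite strand, and their 3' UTRs were from 1913 to 4876 bases long. In KO 14 of the 15 were at least 1 higher too, and the exception was Prkar2b, with 0.50. All 15 had a lower recovery in KO than in WT, which their choice as the highest in WT nearly fixes.

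**Figure D2:**
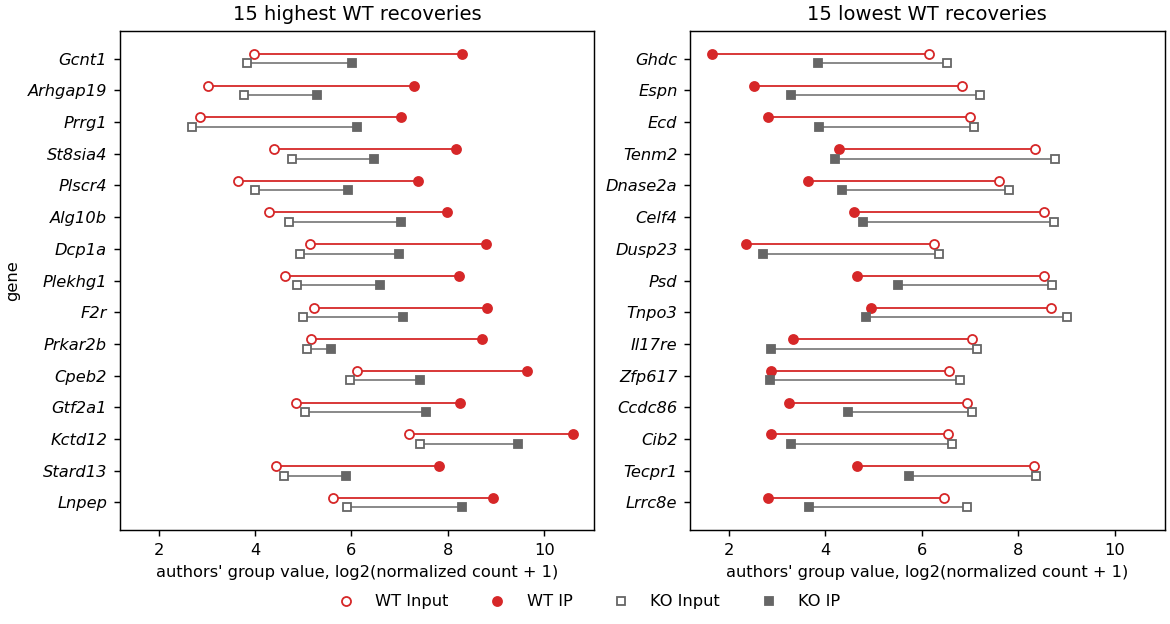
Authors' group values, as log2 of the normalized count plus 1, of the 15 genes with the highest (left) and the 15 with the lowest (right) WT recovery. Open symbols are Input and filled ones IP, red circles WT and grey squares KO; the Input values of the 2 genotypes lie close together, the red lines on the left are longer than the grey ones, and on the right both lines are long.

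The lowest recovery belonged to Ghdc, on chromosome 11 from 100766032 to 100766802, with 1.64 in WT IP and 6.16 in WT Input, 22.8-fold lower in IP. Its KO values were 3.85 and 6.51. Espn, which encodes the actin-bundling protein espin, had 2.52 in WT IP and 6.84 in WT Input (19.9-fold lower) and 3.28 and 7.21 in KO. The splicing and cell cycle factor gene Ecd had 2.82 and 7.00 (18.2-fold lower) beside 3.86 and 7.07 in KO. Tenm2, an adhesion protein of the teneurin family, had 4.28 and 8.35 in WT (16.9-fold lower), and in KO 4.20 and 8.76. In each of these genes the 2 Inputs lay close together, and both IPs lay far below them. The other 11 had recoveries from -3.96 to -3.65. They were the lysosomal nuclease gene Dnase2a (-3.96), the RNA-binding protein gene Celf4 (-3.93), the phosphatase gene Dusp23 (-3.89), the exchange factor gene Psd (-3.87) and Tnpo3, which imports splicing factors into the nucleus (-3.75). Further down came the cytokine receptor gene Il17re (-3.71), the zinc finger gene Zfp617 (-3.70), Ccdc86 (-3.69), the calcium-binding protein gene Cib2 (-3.67), the autophagy gene Tecpr1 (-3.65) and the anion channel subunit gene Lrrc8e (-3.65). All 15 were at least 1 lower in KO as well, from -4.56 to -2.58, and none was called in the interaction of the authors' deposited table (adjusted Wald test p from 0.251 for Ghdc to 0.991 for Dusp23). Of the 15, Ccdc86, Cib2 and Psd overlap a row on the opposite strand, so their counts are uncertain where the rows share bases. The WT IP values of all 15, from 1.64 to 4.94, lay below the level of the filter, so the rows passed it mainly through Input. The added 1 shrinks folds at values this low, so those given hold only on this scale. The 15 rows were shorter than the highest ones, from 608 to 2080 bases with a median of 872 against 2932.

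The 100 rows at each end were counted in the same way. Among the 100 highest, with WT recoveries of at least 2.53, 90 were at least 1 higher in KO, beside 17.0% of all rows. Of these 100, 22 were called in the authors' interaction, beside 2.26% of all rows. Among the 100 lowest, at -2.66 or below, all 100 were at least 1 lower in KO and 0 were called there. The best counted genes past the threshold were Timp3, an inhibitor of metalloproteinases, with 11.29 in WT IP and 10.27 in WT Input, the sialomucin gene Cd164 with 10.99 and 9.44, and the ion cotransporter gene Slc12a2 with 10.87 and 9.35. On the low side they were the transcriptional repressor gene Zbtb7a with 9.14 in WT IP and 10.85 in WT Input, the Golgi protein gene Glg1 with 9.26 and 10.72, and the transcription factor gene Nfic with 9.10 and 10.64. Of these 6 only Timp3 lacked a KO recovery past the threshold in the same direction, with 0.07 (10.58 in KO IP and 10.50 in KO Input). It did not pass the authors' interaction, with 0.95 ± 0.34 in the authors' deposited table (SE, adjusted p = 0.135 by the Wald test).

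The authors' interaction tests which WT recoveries exceeded those in KO. Of the 5317 rows in the authors' deposited table, 120 passed as higher in WT (2.26%) and 0 as lower, at an adjusted p of 0.05 (Wald test), and at an unadjusted p under 0.05 the numbers were 668 and 58. The WT recovery of the 120 rows had a median of 1.51 and their KO recovery one of -0.10. Of the 120, 80 were at least 1 higher in WT IP than in WT Input and 15 in KO. These 80 are 5.34% of the 1499 rows with a WT recovery of at least 1, so for the other rows of that set a difference from the knockout was not shown. The same WT values enter the interaction and the recovery, so the larger share of calls among highly recovered rows is partly built in. With the median interaction of all tested rows subtracted, 30 rows passed.

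Among the called rows the highest WT recoveries were those of Gcnt1 and Arhgap19, with interactions of 2.31 ± 0.69 (SE; Wald test, adjusted p = 0.0405) and 2.96 ± 0.68 (adjusted p = 0.00343) in the authors' deposited table. St8sia4 had 2.13 ± 0.53 (Wald test, adjusted p = 0.01), Dcp1a 1.63 ± 0.46 (adjusted p = 0.0293) and Plekhg1 1.94 ± 0.50 (adjusted p = 0.0128) in the authors' deposited table. F2r passed narrowly in the authors' deposited table, with 1.49 ± 0.46 and an adjusted p of 0.0498 by the Wald test. Prkar2b, on chromosome 12 from 31958476 to 31960388, had 8.71 in WT IP and 5.15 in WT Input against 5.58 and 5.07 in KO. Its adjusted p was the smallest of all rows in the authors' deposited table, 9.19e-06 by the Wald test, for an interaction of 3.08 ± 0.51. Kctd12 had 1.38 ± 0.37 (adjusted p = 0.0233) and Stard13 2.14 ± 0.54 (adjusted p = 0.0107) by the Wald test of the authors' deposited table. Aplnr, which encodes a receptor of endothelial cells, had 7.78 and 4.79 in WT and 6.18 and 5.18 in KO, with an interaction of 2.07 ± 0.53 in the authors' deposited table (adjusted p = 0.0128 by the Wald test). By contrast Prrg1 (0.78 ± 0.74), Gtf2a1 (0.93 ± 0.53) and Lnpep (0.99 ± 0.46) were not called in the authors' deposited table, although their WT recoveries of 3.33 to 4.18 were as large (Wald test, adjusted p = 0.704, 0.445 and 0.312).

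Only 3 rows were at least 1 higher in WT and at least 1 lower in KO, and they are named because of these values. The semaphorin receptor gene Plxna2 had 8.70 in WT IP and 7.26 in WT Input, and 6.56 and 7.71 in KO. The zinc finger factor gene Prdm16 had 7.11 and 5.79 in WT and 4.98 and 6.05 in KO, and Glcci1, a glucocorticoid-induced gene, 7.14 and 6.13 in WT and 5.53 and 6.68 in KO. In all 3 genes WT IP stood above both Inputs and KO IP below both. All 3 passed the Wald test of the authors' deposited table, with interactions of 2.60 ± 0.45 (adjusted p = 1.65e-05), 2.50 ± 0.58 (0.00391) and 2.21 ± 0.57 (0.0127) in that order. No row was at least 1 lower in WT and at least 1 higher in KO, and 101 rows were at least 1 higher in KO without reaching 1 in WT.

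All 4 members of the CPEB family were measured, and 3 had a WT recovery of at least 1. The recoveries were 3.53 for Cpeb2, 2.58 for Cpeb4, 1.79 for Cpeb3 and -0.77 for Cpeb1. Cpeb4 had 9.01 in WT IP and 6.43 in WT Input, and in KO 8.47 and 7.07. Cpeb3 had 6.57 and 4.77 in WT, and in KO 5.17 and 5.54. Cpeb1 had 5.12 and 5.89 in WT, and in KO 5.48 and 6.76, so its 2 IPs were the lowest relative to Input in the family. The 3 recovered members have 3' UTRs of 3569 to 4102 bases, and that of Cpeb1 has 1315. Cpeb2 lies on chromosome 5 from 43285947 to 43289724, Cpeb4 on chromosome 11 from 31931533 to 31935634, Cpeb3 on chromosome 19 from 37021291 to 37024859 and Cpeb1 on chromosome 7 from 81347026 to 81348340. In the authors' deposited table Cpeb2 (2.12 ± 0.45, adjusted p = 0.00119) and Cpeb3 (2.39 ± 0.71, adjusted p = 0.0377) passed the Wald test of the interaction, while Cpeb4 (1.24 ± 0.44, adjusted p = 0.127) and Cpeb1 (0.57 ± 0.60, adjusted p = 0.738) did not. The Input values of the Cpeb2 row, 6.11 in WT and 5.98 in KO, do not tell the genotypes apart, and whether this row lies in the deleted part of the gene is not known here.

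Of 6 published targets of CPEB2, 2 passed the filter, and both were recovered in both genotypes. The hypoxia factor gene Hif1a had 9.38 in WT IP and 8.04 in WT Input, a recovery of 1.33, beside 1.27 in KO. The growth factor receptor gene Pdgfra had a recovery of 1.81 in WT and 1.86 in KO. Their interactions in the authors' deposited table were 0.06 and -0.04, and neither passed (Wald test, smallest adjusted p = 0.958). Tnfsf11, which encodes RANKL, did not pass the filter, with a mean normalized count of 5.74. It had 3.45 in WT IP and 1.55 in WT Input, a recovery of 1.90, and 2.53 and 2.54 in KO. The interaction of 2.29 ± 1.61 (SE) in the authors' deposited table has a 95% interval from -0.87 to 5.46, so a difference from KO was not detectable at this count.

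The wider list of RANK and progesterone signalling was divided. Of 28 genes 19 were measured, 5 were at least 1 higher in WT IP and 2 at least 1 lower, with a median of 0.71 beside 0.29 for all rows. The share at least 1 higher, 26.3%, was near the 28.2% of all rows, and the share at least 1 lower was 10.5% beside 15.7%. The chemokine gene Cxcl12 (1.97), Stat5b (1.62), a transcription factor of prolactin signalling, and the NF-kB genes Nfkb1 (1.58), Ikbkg (1.45) and Chuk (1.15) were the higher ones. Wnt4, a Wnt ligand that progesterone induces, was the lowest at -3.24 (KO -3.10), and Nfkb2 had -2.61 (KO -2.31). The receptor genes Tnfrsf11a (0.88), Esr1 (0.71) and Prlr (0.12) lay between the thresholds. Pgr did not pass the filter, with 5.20 in WT IP and 2.91 in WT Input. Ccnd1, the cyclin through which this pathway acts on the cell cycle, had 9.69 in WT IP and 9.19 in WT Input, a recovery of only 0.49, beside 7.74 in KO IP and 9.11 in KO Input, a KO recovery of -1.37. It passed the Wald test of the authors' deposited table with 1.92 ± 0.43 (adjusted p = 0.00224), and its row overlaps one on the opposite strand. With the length trend subtracted the list's median was -0.03. Of 26 cell cycle genes 11 were measured, 4 at least 1 higher and 2 at least 1 lower, with a median of 0.49 in WT and -0.73 in KO. These shares were 36.4% and 18.2%, beside 28.2% and 15.7% of all rows. The sign of the WT median turned with the settings, to -0.03 with the length trend subtracted and to -0.15 over 16 genes with a mean count of at least 10. The retinoblastoma family genes Rbl2 (1.46) and Rb1 (1.33), E2f3 (1.43) and the inhibitor gene Cdkn1b (1.25) were the higher ones, and the inhibitor genes Cdkn1c (-3.03, KO -3.28) and Cdkn1a (-1.89, KO -1.61) the lower ones.

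Genes of deadenylation and mRNA decay had a median above that of all rows. Of 39 listed 29 were measured, 11 were at least 1 higher in IP, 2 at least 1 lower and 24 above 0, with a median of 0.77. The shares at least 1 higher and above 0 were 37.9% and 82.8%, beside 28.2% and 59.1% of all rows. The median was 0.46 with the length trend subtracted. The decapping genes led the list, Dcp1a with 3.65 and the decapping enzyme gene Dcp2 with 2.69. They were followed by the Argonaute gene Ago1 (2.32), the deadenylase subunit gene Pan3 (2.28), the deadenylase adaptor gene Tob1 (1.80) and the gene of the AU-rich element binder Zfp36l2 (1.74). Tnrc6a, a scaffold of microRNA silencing, was low in both genotypes, with -2.02 in WT and -2.55 in KO, and Cnot4, a ubiquitin ligase of the CCR4-NOT complex, had -1.09. In 26 of the 29 genes (89.7%, beside 64.8% of all rows) the WT recovery exceeded that in KO. Decay rows had a median 3' UTR length of 2459 bases, and the share of all rows was not matched for length. Of the 29, 2 (Dcp1a and Tob2) were called in the authors' deposited table, beside 2.26% of all rows. Of 21 nuclear cleavage and polyadenylation factors 8 were measured, 1 at least 1 higher (Cpsf6, 1.87) and 2 at least 1 lower, with a median of 0.14. With a mean count of at least 10 the medians of the decay and the nuclear list were alike, 0.41 over 37 genes and 0.43 over 14. The lower 2 were the poly(A)-binding protein gene Pabpn1 (-2.02) and Cpsf2 (-1.27).

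Of 35 Notch, Wnt and Hedgehog genes 24 were measured, with a median of 0.58. At least 1 higher were 11 (45.8%, beside 28.2% of all rows) and at least 1 lower 2 (8.33%, beside 15.7%). Above 0 were 17 (70.8%, beside 59.1%). The Wnt receptor genes Fzd4 (2.34), Lrp6 (2.08), Fzd1 (1.76), Fzd7 (1.16) and Fzd6 (1.06) were higher, as were the Notch ligand gene Jag1 (2.11), the Notch feedback gene Nrarp (1.91) and the receptor genes Notch2 (1.48) and Smo (1.42). Wnt4 and the transcription factor gene Tcf7l1 (-2.24) were the lower 2. Jag1 with 1.74 ± 0.45 (Wald test, adjusted p = 0.0148) and Lrp6 with 1.34 ± 0.39 (adjusted p = 0.0366) also passed the interaction in the authors' deposited table. The receptor gene Fzd2 passed there as well, with a recovery of -0.08 in WT and -2.87 in KO.

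Immediate early genes, which cells switch on within minutes of a stimulus, had a median above that of all rows without long 3' UTRs. Of 26 immediate early genes 25 were measured, 8 at least 1 higher, 0 at least 1 lower and 22 above 0. The share at least 1 higher, 32%, was near the 28.2% of all rows, and the share above 0 was 88% beside 59.1%. Their median was 0.78 in WT and 0.53 in KO, and their 3' UTRs had a median length of 982 bases beside 1819 for all rows. With the length trend subtracted the median was 0.64 and 22 stayed above 0. The matricellular protein gene Ctgf (1.79), the cytokine signalling inhibitor gene Socs3 (1.60), Myc (1.57) and Egr2 (1.50) were the highest, Fos (0.71) and Jun (0.65) lay between, and Klf4 had -0.87. None was called in the authors' deposited table (Wald test, smallest adjusted p = 0.146).

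Genes of glycolysis, the respiratory chain, the mitochondrial ribosome and the proteasome had list medians below 0. Of 17 glycolytic enzyme genes 12 were measured, 0 were at least 1 higher and 6 at least 1 lower in WT IP, and the median was -1.03 in WT and -0.17 in KO. The share at least 1 lower was 50%, beside 15.7% of all rows. The lower ones were Tpi1 (-1.65), Eno1 (-1.34), Pgk1 (-1.26), Gpi1 (-1.24), Pfkl (-1.18) and Pfkp (-1.11), and only Hk2 was above 0, with 0.93. In 10 of the 12 (beside 35.2% of all rows) the WT recovery was below that in KO, and none passed the interaction in the authors' deposited table (Wald test, smallest adjusted p = 0.211). Glycolytic rows had a median 3' UTR length of 612 bases, and the share of all rows was not matched for length. Of 78 respiratory chain genes 17 were measured. Of these, 0 were above 0, 9 were at least 1 lower (52.9%) and the median was -1.18, with -0.59 in KO. Ndufa10 of complex I had -3.36 (KO -3.15) and Uqcrc2 of complex III -2.72 (KO -3.39). Of 39 proteasome genes 7 were measured, all below 0, with a median of -1.30. At least 1 lower were 4 of them (57.1%), among them Psmd4 with -1.35 and Psmd11 with -1.33. Of 74 mitochondrial ribosomal protein genes 7 were measured, with a median of -0.84. At least 1 lower were 3 (42.9%), with -3.09 for Mrpl45 and -2.53 for Mrpl43. Ndufa10, Uqcrc2, Mrpl45 and Mrpl43 had both IP values below the level of the filter, so they passed it through Input only. The medians describe the members that passed and not the whole lists. These 4 lists kept a median below 0 with the length trend subtracted, at -0.55, -0.42, -0.64 and -1.38 in the order given.

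Of 86 cytosolic ribosomal protein genes 19 were measured, 1 at least 1 higher (Rpl10a, 1.51) and 2 at least 1 lower (Rpl27a, -1.39, and Rpsa, -1.33). Many of these genes have near-identical pseudogenes, so their counts are uncertain. The median was -0.27, and -0.03 with the length trend subtracted, but -0.62 over the 67 genes with a mean count of at least 10. Of 38 translation factor genes 23 were measured, 2 at least 1 higher and 4 at least 1 lower, with a median of 0.02 in WT and 0.41 in KO, and of -0.51 in WT over the 35 genes with a mean count of at least 10. All rows with that mean count had a median of 0.02. Eif4ebp2, an inhibitor of cap-dependent initiation, was highest with 1.62, and 3 initiation factor genes were lowest, Eif4g3 with -3.03, Eif3e with -2.33 and Eif3a with -1.59. Of the cytosolic heat shock genes 16 of 19 were measured, with 0 past 1 in either direction and a median of 0.14. In all 16, with a median 3' UTR length of 722 bases, the WT recovery was below that in KO, as in 35.2% of all rows. That share of all rows was not matched for length. The KO median was 0.57, and none passed the interaction in the authors' deposited table (Wald test, smallest adjusted p = 0.279). The largest recoveries among them were those of Hspa1b (0.94 in WT, 1.68 in KO) and Hspa4 (0.73 in WT, 0.79 in KO). Of 25 genes of secretion and endoplasmic reticulum chaperones 21 were measured, with a median of 0.44. At least 1 higher were 7 (33.3%, beside 28.2% of all rows) and at least 1 lower 0. The signal peptidase genes Spcs3 (2.79) and Spcs2 (1.46) and the translocon-associated gene Ssr3 (1.69) led the list. The chaperone genes Hspa5 (0.04) and Hsp90b1 (-0.46) stayed near Input.

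Chromatin regulators had a median below that of all rows at a median 3' UTR length of 1762 bases. Of 43 methyltransferase, demethylase and remodeler genes 34 were measured, 4 at least 1 higher and 7 at least 1 lower. These shares were 11.8% and 20.6%, beside 28.2% and 15.7% of all rows. The list median was -0.40 in WT and -0.57 in KO, and -0.79 in WT with the length trend subtracted. The remodeler genes Chd8 (-3.39), Chd7 (-2.84), Bptf (-1.92) and Chd4 (-1.83) were lowest, and their relatives Chd9 (1.97), Chd1 (1.58) and Chd2 (1.14) were among the highest, after Setd5 (2.65). Setd5 (1.43 ± 0.40) and Kmt2e (1.61 ± 0.45, with a WT recovery of -0.10) passed the Wald test of the authors' deposited table (adjusted p = 0.0293 for both). The CHD family was thus spread over more than 5 log2 units. Zinc finger genes were spread as widely. Of 80 measured, 29 were at least 1 higher and 17 at least 1 lower, with a median of 0.53 and 0.03 with the length trend subtracted. These shares were 36.2% and 21.2%, beside 28.2% and 15.7% of all rows. Zfp275 (2.88), Zfp26 (2.70), Zbtb41 (2.69) and Zbtb33 (2.52) were the highest, and Zfp617 (-3.70) and Zfp1 (-2.35) the lowest. Replication-dependent histone genes, whose mRNAs mostly end in a stem-loop without a poly(A) tail, were nearly absent, with 2 of 56 past the filter, Hist1h1c with a recovery of 0.05 and Hist3h2a with -0.02. Of 9 polyadenylated histone variants 5 were measured, 1 at least 1 lower (H2afy, -1.75), with a median of 0.34 and 0.80 for H3f3b.

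Of 12 measured endothelial markers 4 were at least 1 higher (33.3%, beside 28.2% of all rows) and 0 at least 1 lower. Their median of 0.23 was just below that of all rows, and it was -0.05 with the length trend subtracted. The higher ones were the transcription factor gene Sox18 (2.11), the cadherin gene Cdh5 (1.91), the angiopoietin receptor gene Tek (1.55) and Pecam1 (1.09), while the claudin gene Cldn5 had -0.66. Of the 12, 3 passed the interaction in the authors' deposited table, beside 2.26% of all rows (smallest adjusted Wald test p = 0.00861). Among these were Sox18 with 2.14 ± 0.62 and Cdh5 with 1.32 ± 0.38 in the authors' deposited table (adjusted Wald test p = 0.0347 for both). In Sox18 both Inputs and the KO IP lay below the level of the filter on mean count, so it passed that filter through WT IP alone. Of 18 basal and myoepithelial markers 1 was at least 1 higher (Col17a1, 1.09) and 6 at least 1 lower, with a median of -0.73, or -0.44 with the length trend subtracted. The share at least 1 lower was 33.3%, beside 15.7% of all rows. The lower ones were the integrin gene Itgb4 (-2.44), the contractile genes Tagln (-1.35), Myl9 (-1.33) and Cnn1 (-1.31) and the keratin genes Krt17 (-1.20) and Krt14 (-1.19). Tagln overlaps a row on the opposite strand. Of 22 luminal markers 1 was at least 1 higher, the receptor gene Kit with 2.04, and 3 at least 1 lower, Gata3 (-1.57), Ltf (-1.29) and Ly6d (-1.07), with a median of 0.15. The luminal shares were 4.55% and 13.6%, beside 28.2% and 15.7% of all rows. Krt8 (-0.17) and Epcam (0.70) lay near Input.

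Of 23 measured fibroblast markers 1 was at least 1 higher (Pdgfra) and 3 at least 1 lower, Fbln2 (-1.90), Mmp3 (-1.25) and Loxl1 (-1.13), with a median of -0.24. These shares were 4.35% and 13%, beside 28.2% and 15.7% of all rows. In 21 of the 23 (beside 35.2% of all rows) the WT recovery was below that in KO, and none passed the interaction in the authors' deposited table (Wald test, smallest adjusted p = 0.287). Fibroblast rows had a median 3' UTR length of 959 bases, and the share of all rows was not matched for length. Of 18 adipocyte markers 7 were measured, with a median of -0.14. The desaturase gene Scd1 was at least 1 higher (1.69), and Car3 (-1.74) and Lpl (-1.40) were at least 1 lower. Below the filter Lep had 2.75, Adipoq 1.53, Plin1 0.91 and Cidec -0.74. Aqp7, the glycerol channel gene, had 0.74 in WT and -2.70 in KO, and passed the interaction with 2.93 ± 0.77 in the authors' deposited table (adjusted Wald test p = 0.0167). Of 20 leukocyte markers only 3 were measured, 2 of them at least 1 lower, Cd74 (-1.19) and Laptm5 (-1.07), with a median of -1.07. Among markers below the filter, Ptprc had 1.61, Lyz2 0.65, Cd3e 0.13 and Cd79a -3.09, so the list has no common direction. Of 19 measured collagen genes 2 were at least 1 higher, Col12a1 (2.70) and Col17a1, and 1 at least 1 lower, Col27a1 (-2.42), with a median of 0.31. The collagen shares were 10.5% and 5.26%, beside 28.2% and 15.7% of all rows.

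The protocadherin list shows a limit of the rows. It held 11 rows, none past 1 in either direction and with a median of -0.04, but 8 of them belong to the gamma cluster, whose genes share their last exons and with them the 3' UTR. Of these 8, 7 had equal recoveries to 4 decimals, and Pcdhga9 differed from them by less than 0.01. Pcdh17 (-0.14 in WT, -2.48 in KO) and Pcdh19 (0.27 in WT, -1.26 in KO) passed the interaction in the authors' deposited table with 2.46 ± 0.61 and 1.56 ± 0.44 (Wald test, adjusted p = 0.00905 and 0.0292), again without a WT recovery above the threshold. Over all rows 57 share their whole interval with another row.

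**Figure D3:**
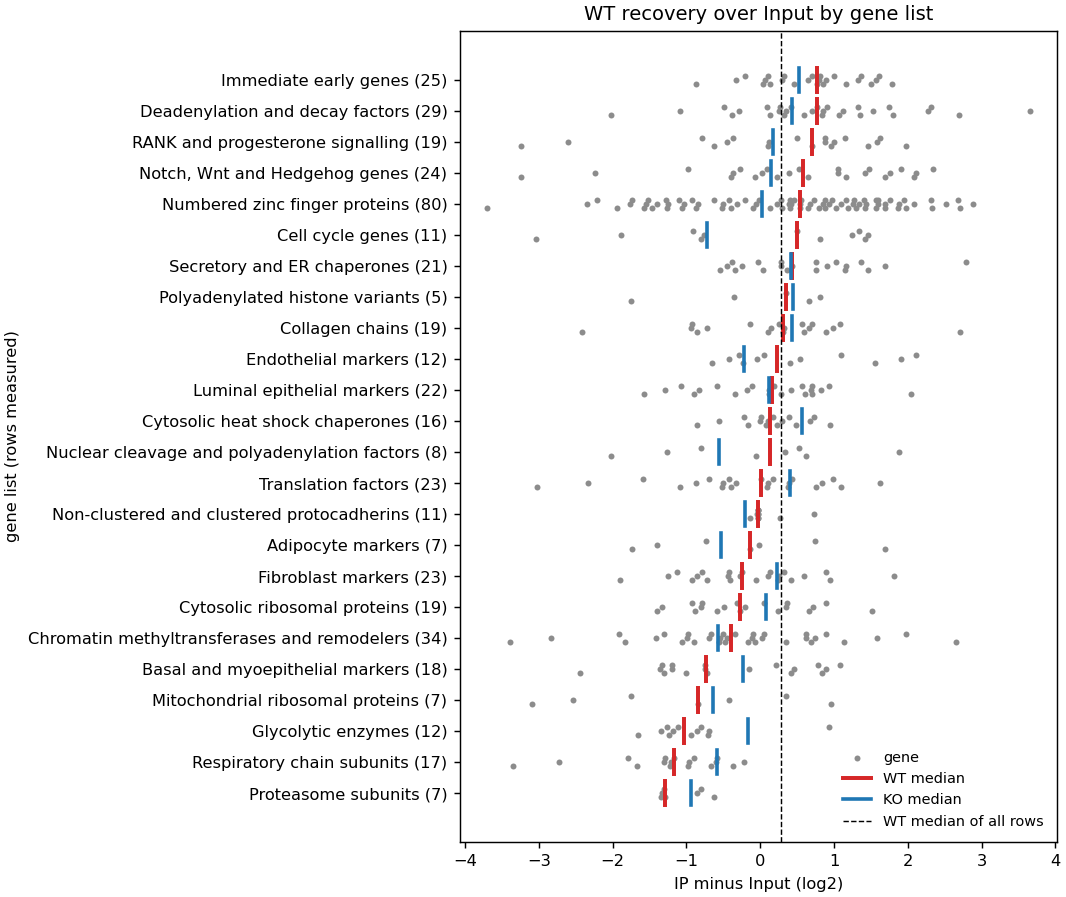
WT IP minus WT Input in log2 units for each measured gene (grey points) of the 24 lists with at least 5 rows, with the WT median (red bar) and the KO median (blue bar) of each list and the WT median of all rows, 0.29 (dashed line). List medians run from -1.30 for proteasome subunits to 0.78 for immediate early genes, and members of most lists spread over more than 2 log2 units.

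Rows with longer 3' UTRs had higher recoveries over 5 length classes of about equal size. The shortest class, of 30 to 911 bases, had a median WT recovery of -0.47 with 7.04% of rows at least 1 higher and 28.8% at least 1 lower. The longest class, of 3292 bases and more, had a median of 0.93 with 47.6% at least 1 higher and 8.27% at least 1 lower. The medians between were 0.05, 0.42 and 0.74. In KO the medians from the shortest to the longest class were -0.22, 0.02, 0.26, 0.41 and 0.41, a smaller range. The Spearman correlation of recovery and length across the 5317 rows was 0.37 in WT and 0.22 in KO, as a description. That of the authors' interaction and length was 0.39, and the median interaction was -0.23 in the shortest class and 0.52 in the longest. The list shares of WT above or below KO were set beside all rows and not beside rows of like length. Because longer rows also collect more reads, the rows were divided into 3 levels of mean count as well. At the lowest level the medians of the shortest and longest classes were -0.63 and 0.93, at the middle level -0.46 and 0.95, and at the highest level 0.01 and 0.86. The order of the shortest and longest rows was thus the same at every level, with a smaller gap among the best counted.

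**Figure D4:**
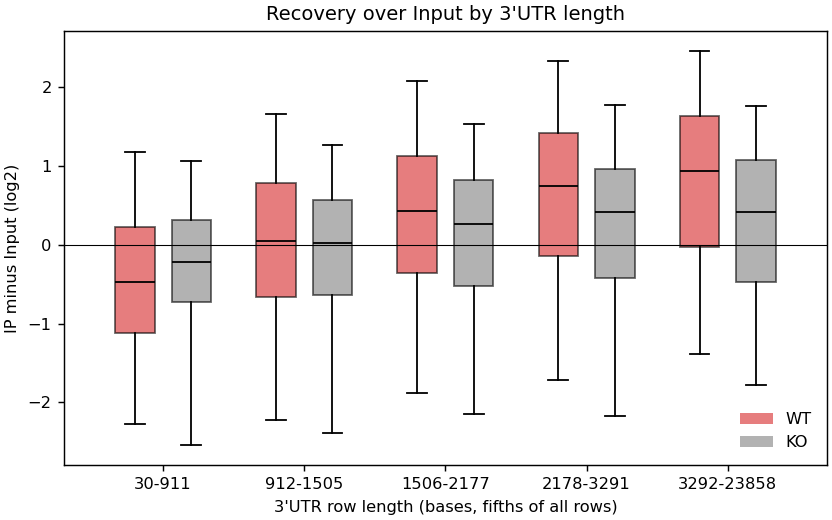
Boxes show the quartiles and median, and whiskers the central 90%, of IP minus Input in log2 units for the rows of each of 5 classes of 3' UTR length, in WT (red) and KO (grey). The WT median goes from -0.47 in the shortest class to 0.93 in the longest, the KO median from -0.22 to 0.41.

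Genes that share a symbol root were examined as families after the recoveries had been seen. Of 48 roots with at least 10 measured rows, the median WT recovery ran from -0.45 to 1.19. For comparison, 28.2% of all rows were at least 1 higher and 15.7% at least 1 lower. The highest median was that of ankyrin repeat genes named Ankrd, with 8 of 13 at least 1 higher and 2.43 for Ankrd28 and 2.35 for Ankrd44. Next were the semaphorins, guidance ligands of plexins, with a median of 1.05, 6 of 10 at least 1 higher and 0 at least 1 lower, led by Sema3d (2.14) and Sema6a (1.83). The lowest was that of the kinesin motor genes, with a median of -0.45, 0 of 10 at least 1 higher and 3 at least 1 lower (Kif3a with -1.84, Kif26a with -1.26 and Kif5b with -1.08), although their 3' UTRs had a median length of 3043 bases. With the length trend subtracted the kinesin median was -1.17, the semaphorin median 0.93 and the Ankrd median 0.64.

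Recovery also differed by chromosome. The median WT recovery was lowest on chromosome 7, at -0.13 over 328 rows, and highest on chromosome 3, at 0.70 over 267 rows, leaving out chromosome Y with 1 row. Chromosomes 11 (0.03) and 4 (0.08) followed at the low end, and chromosomes X (0.62) and 16 (0.56) at the high end. With the length trend subtracted chromosome 7 had a median of -0.24, chromosome 11 one of -0.26, chromosome X one of 0.28 and chromosome 3 one of 0.30. Rows that overlap another row on the opposite strand were 7.17% of all, 3.60% of those at least 1 higher and 9.45% of those at least 1 lower, and leaving them out gave 1445 higher and 757 lower rows of 4936.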

How the data were processed

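RIP-seq libraries of WT and Cpeb2 KO mammary cells form 4 groups of 2. Tools listed without roles in the submitters' processing notes are Bowtie2 2.2.2, Bowtie 0.12.9 and DESeq2, with the build mm10. How reads were counted, and whether by strand, is not stated. The deposited table gives 1 log2 value per group, which behaves as log2 of a normalized count plus 1. The authors' mean normalized count is a signal in DESeq2's format, judging by the deposited column names. Beside it stand the interaction (IP over Input in WT minus that in KO, log2), its SE, a Wald score (fold change over SE) and two-sided p-values as the authors deposited them, adjusted over 5327 rows. Its fitted values differed from the same difference of group values by a median of 0.017. The 8 columns named by sequencing index alone were not used, since no label pairs them with samples, so depth per library is unknown.

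Recoveries, medians, counts at a threshold of 1 and a running median over 301 rows ordered by length were computed in Python 3.11.15 (numpy 2.4.6, pandas 2.3.3, scipy 1.17.1, matplotlib 3.10.9) and tested on simulated data. Intervals of 95% are the estimate plus and minus 1.96 SE. Members, lists and alternatives were chosen with earlier results of these data known. Named genes are the 15 highest and 15 lowest recoveries, the 12 highest among called rows, the 3 best counted per direction, up to 6 per list by size and a fixed set, passing over gene models. 1 of these genes is not reported here. Symbols are the file's, of which 5035 of 5207 matched RefSeq. Others named in the lists, and the 3 rows with opposite signs, were chosen after their values were seen. No 3' UTR sequence was used here.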

Additional observations from a re-analysis of the deposited data

Results flagged for a closer look

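The test of the difference between WT and KO recovery, the authors' interaction, called 120 rows. The values of the genes described follow, and Fzd2 (2.93), Tob2 (1.22) and Kmt2e (1.61) also passed in the authors' deposited table. In the authors' deposited table, where the Wald test gives the adjusted p, the log2 interactions of the genes with the highest WT recoveries were 2.31 for Gcnt1, 2.96 for Arhgap19, 2.13 for St8sia4, 1.63 for Dcp1a, 1.94 for Plekhg1, 1.49 for F2r, 3.08 for Prkar2b, 2.12 for Cpeb2, 1.38 for Kctd12, 2.14 for Stard13 and 2.07 for Aplnr. For the 3 genes with opposite signs in the genotypes, the authors' deposited table gave 2.60 for Plxna2, 2.50 for Prdm16 and 2.21 for Glcci1. For list members it gave 1.43 for Setd5, 1.74 for Jag1, 2.14 for Sox18, 1.34 for Lrp6, 1.32 for Cdh5, 2.39 for Cpeb3, 2.93 for Aqp7, 1.92 for Ccnd1, 1.56 for Pcdh19 and 2.46 for Pcdh17. Each of these is a higher recovery in WT. In Ccnd1, Aqp7, Pcdh17 and Pcdh19 the WT recovery was below 1 and the KO recovery at -1.26 or lower.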

How the results depend on the processing

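No paired analysis was possible because the values per library are in columns that no label ties to samples or replicates, and for the same reason no library was left out in turn. The count of rows at least 1 higher in WT IP, 1499, was 891 with a mean count of at least 100, 852 with the length trend subtracted and 355 at a threshold of 2. The count at least 1 lower, 836, was 388 with a mean count of at least 100, 2063 with one of at least 10 and 233 at a threshold of 2. The minimum of 100 leaves 2749 rows and that of 10 leaves 9917, in place of 5317. With 1 row per symbol, with 1 row per interval (an alternative chosen after seeing the data), with opposite-strand overlaps left out and with the median subtracted, both counts stayed within 1.5 times. The interaction count of 120 was 30 with the median subtracted and 169 at an adjusted p of 0.10. The longest of the 5 length classes exceeded the shortest by a median of 1.40, by 1.01 at a mean count of at least 100 and by 1.39 without opposite-strand overlaps. Of 24 lists, 9 had a median above that of all rows, 9 after subtraction of the length trend and 13 at a mean count of at least 10. The length trend changed which lists these 9 were. RANK and progesterone signalling, cell cycle genes and polyadenylated histone variants fell below the median of all rows. Luminal markers, cytosolic heat shock chaperones and translation factors rose above it. Of 215 named genes none changed sign from a recovery past 1, and with the length trend subtracted 37 no longer reached 1 and 11 newly did.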
